A study of Mus musculus with 6 samples.

Results

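The 10 genes described here encode metabolic enzymes, or a factor needed to build one, that are known as targets of the transcription factor p53: Ak1, Ephx1, Dcxr, Fdxr, Aldh4a1, Tigar, Sco2, Gls2, Acad11 and Dglucy. They were taken by symbol from the 23420 genes of the count table, in which Tigar is listed as 9630033F20Rik and Dglucy as 9030617O03Rik. RNA sequencing covered 6 libraries from mouse embryonic fibroblasts of mixed 129/Sv-C57BL/6 strain, transformed with the adenoviral oncogene E1A and with HrasG12V. Each of 3 lines gave an sgNTC library (non-targeting guide RNA, p53 wild-type) and an sgp53 library (guide sgp53(1) against the p53 gene). The labels call the sgp53 cells p53 null in lines 1 and 3 and functionally inactive in line 2, and they do not say whether a line is a clone or a pool. Cells of both groups were kept at 37 °C in 5% oxygen and 5% CO2 for 24 h before harvest. The comparison asked which RNAs differ with p53 status at this oxygen level.

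p53 binds DNA as a tetramer and raises the transcription of genes whose response elements it occupies. Besides arrest and apoptosis genes, its targets include enzymes of glycolytic control, amino acid breakdown, mitochondrial electron transfer and detoxification, through which p53 is known to act on energy supply and redox balance. E1A and oncogenic Ras are both known to activate p53 in fibroblasts.

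Library totals lay between 27503577 and 35860866 counts. The targeted gene itself, Trp53, was at 206, 277 and 253 CPM (read counts scaled to library size with TMM factors) in sgNTC lines 1, 2 and 3 and at 71.1, 72.0 and 113 CPM in sgp53. Of 10 fibroblast markers, 7 reached 1 CPM in every library, and Lum was under 1 CPM in all of them. These markers did not move alike. Vim was lower in sgp53 in each line (2754, 3257 and 3354 CPM in sgNTC, 2562, 2502 and 3001 in sgp53). Fn1, Col1a1 and Col1a2 were higher in each line, Col1a1 at 12.6, 5.18 and 8.91 CPM in sgNTC and 412, 221 and 744 in sgp53. The summed level of the fibroblast markers, most of it Vim and Fn1, was 5536 to 6607 CPM in sgNTC and 6890 to 9367 CPM in sgp53. That of 6 epithelial markers, most of it Krt18 and Epcam, was 259 to 646 and 88.7 to 132 CPM. Of the 6, 3 were above 1 CPM in every library and Krt5 was at 0. Krt18 and Epcam were lower in sgp53 in each line. Cdh1 was higher in line 2 (2.57 CPM in sgNTC, 5.17 in sgp53), and Krt8 in line 3 (0.610 and 1.19 CPM). The summed level of 5 blood and macrophage markers, most of it Cd68, was 8.90 to 10.5 and 3.68 to 4.22 CPM, with Emr1 and Cd3e at 0. Csf1r was lower in line 1 and higher in lines 2 and 3. The part of these shifts in the results below was not tested. The ribosomal RNA precursor Rn45s stood at 3338 CPM in sgp53 line 3, against 636 to 864 CPM elsewhere, and the counts of enzymes and of pathway genes are also given without line 3. In such bulk samples, fewer cells that express a gene and less RNA per cell cannot be told apart.

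The promoters of the targets are shown first, because the genes share a regulator. RefSeq (GRCm38.p6) gave the 250 bases before a transcription start for 9 of the 10 genes; Gls2 was the other. No exact p53 half-site, the 10-base unit of the p53 response element with its CNNG core, lay in these windows of the 9 genes on either strand. Of 27025 genes with a RefSeq promoter, 8.20% held one, and so did 7.11% of the 9665 that were also tested in the counts. A looser search, chosen after this count was known, took a pair of half-sites with up to 3 mismatches in all, none of them at the C or the G of either CNNG core, and a spacer of up to 13 bases. It matched 5 of the 9 genes (55.6%) and 15.4% of the tested genes with a promoter. Each of the 5 had exactly 3 mismatches, the limit itself, so a stricter limit would have matched none of the 9. The difference in shares therefore rests on a limit set afterwards, and no conclusion is drawn from it. The best stretches of 4 of the 5 are printed below that of Cdkn1a, a classical p53 target, so that they can be read against it. The Cdkn1a stretch is from promoter 1 of 2 and had no mismatch. The best pair had 5 mismatches in Cdkn1a promoter 2 and 4 in the promoter of Mdm2, another known p53 target. Neither met the looser limit, though the Mdm2 window held 1 exact half-site. Capitals mark only the pair with the fewest mismatches, and each stretch is written along the strand of its gene. Other bases that resemble a half-site, such as those right after the second marked half-site of Cdkn1a, are in small letters.
Cdkn1a, chr17:29090896-29090947, strand +: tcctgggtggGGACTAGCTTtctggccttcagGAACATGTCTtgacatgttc
Dglucy, chr12:100778904-100778946, strand +: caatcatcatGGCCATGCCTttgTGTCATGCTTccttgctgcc
Dcxr, chr11:120727376-120727416, strand -: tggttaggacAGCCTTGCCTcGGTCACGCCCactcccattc
Aldh4a1, chr4:139622743-139622792, strand +: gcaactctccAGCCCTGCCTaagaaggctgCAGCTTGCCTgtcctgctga
Fdxr, chr11:115277057-115277104, strand -: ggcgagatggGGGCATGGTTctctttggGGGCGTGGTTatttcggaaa
The fifth gene was Tigar. Ak1 and Ephx1, which fell strongly, had no pair with fewer than 4 mismatches in these windows, whereas Fdxr, whose RNA passed no test, had one with 3. The letters of these windows did not separate the genes that fell from those that did not; elements in introns or farther upstream were not searched.

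RNAs of 6 of the 9 testable enzymes fell in sgp53 and none rose (no fold change was above 0). The other 3, Tigar, Gls2 and Fdxr, did not pass the test, and Sco2 had no counts in any library. Calls used edgeR's quasi-likelihood test over 13044 genes at a Benjamini-Hochberg adjusted p under 0.05. Of all genes tested, 3.69% were called lower and 2.76% higher. The median log2 fold change was -0.72 over the 9 enzymes and -0.01 over all genes. The enzymes were chosen with earlier results of these data known, so their contrast with all genes may in part restate that choice. All 9 passed the filter on low counts, and their fitted fold changes ranged from -5.49 to -0.18 on the log2 scale. The groups of libraries did not overlap in 7 of the 9, each lower in sgp53, as in 19.0% of all genes tested. In 4 genes the log2 fold change was under -2, a limit chosen after the values were seen, as in 0.805% of all genes, and in the other 5 it lay between -0.72 and -0.18. Without line 3 these counts were again 7 of 9, against 27.3% of all genes, and 4, against 1.01%. Whether the lines came from separate embryos is not stated, and the labels of lines 2 and 3 share a number, of unstated meaning, that line 1 lacks, so the p-values measure the spread between these lines, whatever its source.

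**Figure D1:**
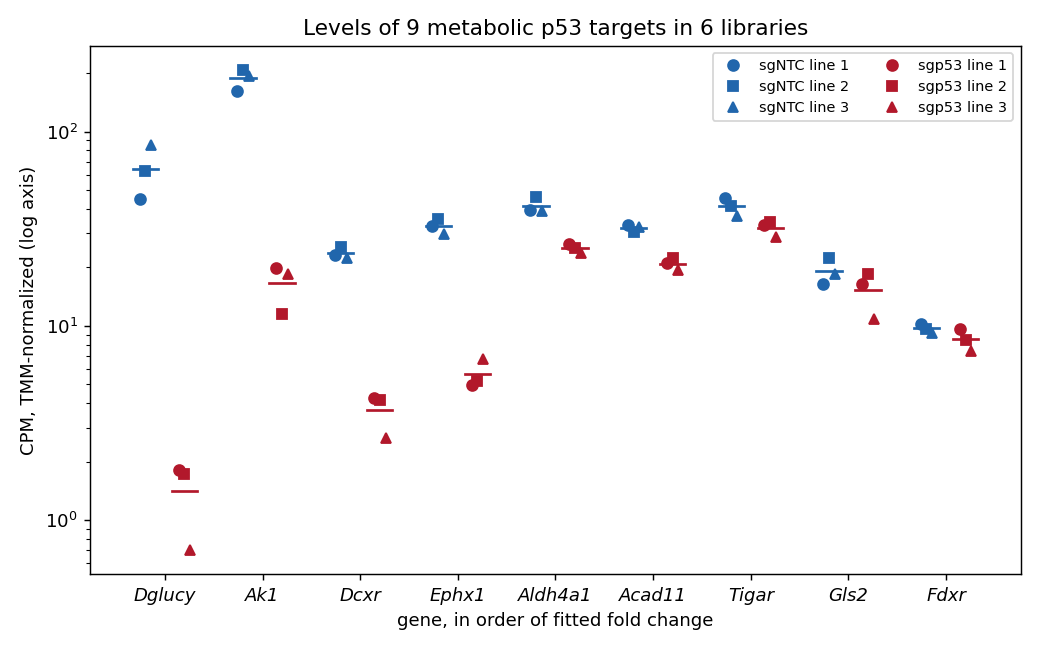
Normalized level (CPM, log axis) of the 9 enzymes with counts in each of the 6 libraries; blue is sgNTC, red is sgp53, the symbol gives the line and the bar the group mean. Dglucy, Ak1, Dcxr and Ephx1 show wide gaps between the groups, whereas the groups of Gls2 and Fdxr overlap.

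Dglucy (chromosome 12, 100779057 to 100896981, GRCm38, as for all positions here) encodes D-glutamate cyclase, a mitochondrial enzyme that turns D-glutamate into 5-oxoproline. It was at 44.8, 62.5 and 85.6 CPM in sgNTC lines 1, 2 and 3 and at 1.81, 1.72 and 0.702 CPM in sgp53. The line with the highest sgNTC level, line 3, had the lowest sgp53 level. The 3 sgp53 libraries held 53, 62 and 20 counts, which were 4.04%, 2.76% and 0.820% of the sgNTC level of the same line after normalization. The fitted log2 fold change was -5.49 (SE 0.41, edgeR adjusted p = 0.00279), a 45.0-fold fall and the seventh largest of all genes tested. The direction was the same in all 15 alternatives (adjusted p 1.27e-54 to 0.0515), and the call was lost without line 2 (edgeR adjusted p = 0.0515).

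Ak1 (chromosome 2, 32621758 to 32635058) encodes the cytosolic adenylate kinase, which interconverts AMP, ADP and ATP. It was at 163, 208 and 194 CPM in sgNTC and 19.8, 11.5 and 18.6 CPM in sgp53 lines 1, 2 and 3. Here line 2 combined the highest sgNTC value with the lowest sgp53 value, and every sgp53 library was far below every sgNTC library. The fitted change was -3.50 on the log2 scale (SE 0.22, edgeR adjusted p = 0.00171), and 12.2%, 5.54% and 9.57% of the sgNTC level was left in lines 1, 2 and 3. The Ak1 call was lost without line 3 (edgeR adjusted p = 0.0704; 3.01e-61 to 0.0704 over 15 alternatives).

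Dcxr and Ephx1 act on reactive carbonyls and epoxides. Dcxr (chromosome 11, 120725399 to 120727281), the dicarbonyl and L-xylulose reductase, was at 23.1, 25.6 and 22.3 CPM in sgNTC and 4.27, 4.14 and 2.67 CPM in sgp53. Its level was lowest in line 3 of each group. Fitting gave -2.68 on the log2 scale (SE 0.20, edgeR adjusted p = 0.00279), and 18.4%, 16.2% and 12.0% of the sgNTC level was left in lines 1, 2 and 3. The Dcxr call was lost without line 1 (edgeR adjusted p = 0.0543) and without line 2 (0.0512; 1.48e-34 to 0.0543 over 15 alternatives).

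Ephx1 (chromosome 1, 180976210 to 181020904), the microsomal epoxide hydrolase, was at 32.8, 35.7 and 29.6 CPM in sgNTC and 4.98, 5.23 and 6.77 CPM in sgp53. Line 3 had the lowest sgNTC and the highest sgp53 level, so its fall was the least deep: 15.2%, 14.6% and 22.9% of the sgNTC level was left in lines 1, 2 and 3. Over the lines the log2 fold change was -2.53 (SE 0.15, edgeR adjusted p = 0.00146). Among the 9 enzymes, Ephx1 was the one called in all 15 alternatives (adjusted p 1.81e-46 to 0.0438).

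**Figure D2:**
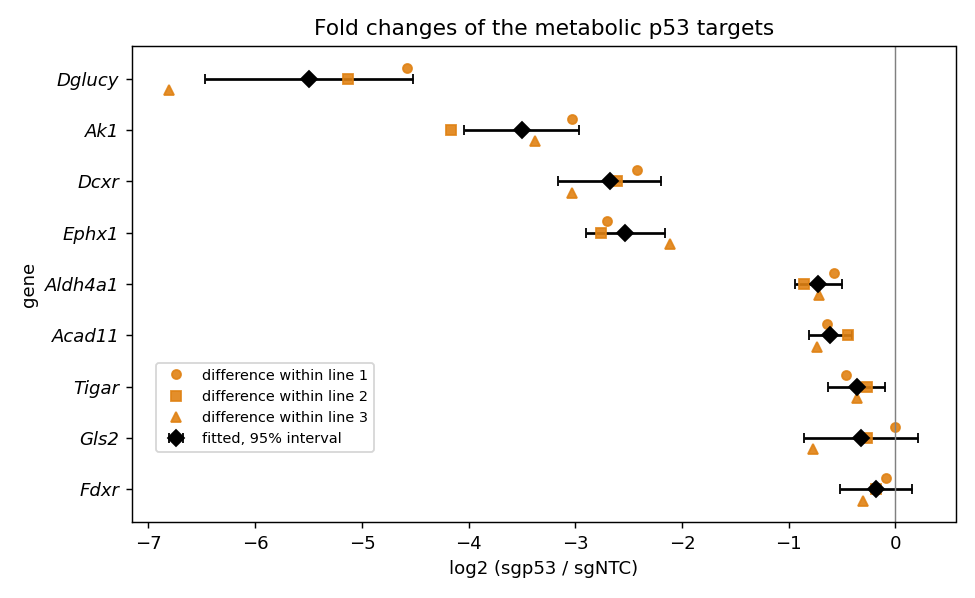
Log2 ratio of sgp53 to sgNTC for each enzyme: the diamond is the edgeR estimate with its 95% interval, and orange symbols are the differences within lines 1, 2 and 3. The intervals of Dglucy, Ak1, Dcxr and Ephx1 lie below -2, those of Aldh4a1, Acad11 and Tigar lie nearer to 0, and those of Gls2 and Fdxr cross it.

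The mitochondrial and peroxisomal catabolic enzymes Aldh4a1 and Acad11 fell by less. Aldh4a1 (chromosome 4, 139622866 to 139649690) encodes the dehydrogenase that completes proline breakdown to glutamate. It was at 39.6, 45.9 and 38.9 CPM in sgNTC and 26.5, 25.3 and 23.7 CPM in sgp53, with no overlap. Its log2 fold change was -0.72 (SE 0.09, edgeR adjusted p = 0.0136), and 67.0%, 55.0% and 60.9% of the sgNTC level remained in lines 1, 2 and 3. Leaving out sgNTC line 3 (edgeR adjusted p = 0.0536), sgp53 line 1 (0.0534), line 1 (0.0995), line 2 (0.0950) or line 3 (0.126) ended the Aldh4a1 call, which held in the other 10 of 15 alternatives (range 4.42e-08 to 0.126). The gene model Gm21969, which has no row in the table, lies on the same strand and shares 32.5% of the exonic bases of Aldh4a1.

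Acad11 (chromosome 9, 104063377 to 104127725) encodes an acyl-CoA dehydrogenase that works on long-chain and hydroxylated fatty acids. It was at 33.0, 30.5 and 32.4 CPM in sgNTC and 21.1, 22.4 and 19.4 CPM in sgp53, again with no overlap and with little spread inside either group. Its log2 fold change was -0.61 (SE 0.09, edgeR adjusted p = 0.0178), and 63.9%, 73.5% and 59.9% remained in lines 1, 2 and 3. With the line as a block the call was lost (edgeR adjusted p = 0.0659). So it was on leaving out sgNTC line 3 (edgeR adjusted p = 0.0845), sgp53 line 1 (0.0736), line 1 (0.134), line 2 (0.0918) or line 3 (0.159), in 15 alternatives with a range from 8.98e-07 to 0.159. The strand setting of the counting is not known, so reads from a stretch shared with an antisense gene could have been given to either. The receptor gene Ackr4, antisense to Acad11 over 4.89% of its exonic bases, was at 0.284 ± 0.132 CPM in sgNTC and 0.106 ± 0.00446 CPM in sgp53.

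Tigar, Gls2 and Fdxr, all well known as p53 targets, did not pass the test. Tigar (chromosome 6, 127085116 to 127109557) encodes a phosphatase that lowers fructose 2,6-bisphosphate and turns glucose towards the pentose phosphate pathway. It was at 45.6, 41.4 and 36.7 CPM in sgNTC and 33.2, 34.4 and 28.6 CPM in sgp53. The groups did not overlap, although sgNTC line 3 and sgp53 line 2 were close. The log2 fold change was -0.36 (SE 0.11, 95% interval -0.63 to -0.10, edgeR adjusted p = 0.0941, unadjusted p = 0.0149). DESeq2 called it lower (adjusted p = 0.0429), and over 15 alternatives the adjusted p ranged from 0.0429 to 0.290.

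Gls2 (chromosome 10, 128194457 to 128210004) encodes the liver-type glutaminase, which makes glutamate from glutamine in mitochondria. It was at 16.5, 22.3 and 18.5 CPM in sgNTC and 16.5, 18.5 and 10.8 CPM in sgp53, and the groups overlapped. By line, 99.9%, 83.1% and 58.6% of the sgNTC level was found in sgp53 lines 1, 2 and 3. The log2 fold change was -0.32 (SE 0.22, 95% interval -0.85 to 0.21, edgeR adjusted p = 0.379). Without line 3 it was -0.15.

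Fdxr (chromosome 11, 115268024 to 115277050) encodes ferredoxin reductase, which passes electrons from NADPH to mitochondrial ferredoxin for iron-sulfur cluster and steroid synthesis. It was at 10.3, 9.64 and 9.21 CPM in sgNTC and 9.66, 8.50 and 7.48 CPM in sgp53, so sgp53 line 1 lay inside the sgNTC range. The log2 fold change was -0.18 (SE 0.14, 95% interval -0.52 to 0.15, edgeR adjusted p = 0.420). The lower bound of this interval is above the fold changes of Aldh4a1 and Acad11; the difference between these genes was not tested.

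Sco2 (chromosome 15, 89371637 to 89373846) encodes a copper chaperone needed to assemble cytochrome c oxidase. It was listed at 0 in all 6 libraries, which allows up to 3 counts per library, or 0.0834 to 0.109 CPM. Its neighbours Ncaph2 and Tymp share 91.8% of its 1253 exonic bases, which leaves 103 bases of its own. Ncaph2, a condensin subunit on the opposite strand, was at 173 ± 5.10 CPM in sgNTC and 208 ± 21.2 CPM in sgp53, and Tymp, thymidine phosphorylase, at 2.78 ± 0.589 and 2.33 ± 0.198 CPM. No source used here says how the authors' counting treated reads shared by genes. The listed 0 cannot be read as absence of Sco2 RNA, and no fold change is given.

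The order of the enzymes by level differed between the groups. Per kilobase of the longest coding transcript, Ak1 led in sgNTC with 90.2 ± 11.0 CPM per kb (SD, n = 3). It was followed by Dcxr at 26.5 ± 1.90, Dglucy at 19.5 ± 6.21 and Ephx1 at 18.8 ± 1.76 CPM per kb. The other 5 were lower, in the order Aldh4a1, Tigar, Acad11, Gls2 and Fdxr, from 12.3 ± 1.15 down to 4.98 ± 0.276 CPM per kb. Within that order, Dglucy and Ephx1, and Aldh4a1 and Tigar, differed by less than their spread. The ± SD ranges of Dcxr and Dglucy overlapped as well. In sgp53 the level per kb was highest for Tigar (8.78 ± 0.828 CPM per kb) and Ak1 (7.97 ± 2.15), which differed by less than their spread, as did Ak1 and Aldh4a1 (7.44 ± 0.416). Dcxr (4.14 ± 0.997), Ephx1 (3.25 ± 0.558) and Dglucy (0.428 ± 0.187 CPM per kb) had the lowest values of the 9. However, Dcxr differed from Ephx1 and from Fdxr (4.39 ± 0.562) by less than its spread.

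Some targets were then set against a gene of their own family or pathway, as the log2 ratio of the pair within a library. Of 8 pairs compared, 6 are described. In 4 of these the ratios of the groups did not overlap, each with an exact two-sided permutation p = 0.1 (0.16 adjusted over 8 pairs), the smallest that 3 against 3 libraries allow. Aldh4a1 fell by 0.97 on the log2 scale relative to Aldh18a1, which catalyses the opposite direction, proline synthesis from glutamate. Tigar fell by 0.95 relative to Pfkfb3, a kinase that makes fructose 2,6-bisphosphate. The related kinases, named after their values were seen, went both ways and were not called. Log2 fold changes were -0.35 for Pfkfb1, -0.53 for Pfkfb2 and 0.33 for Pfkfb4 (edgeR adjusted p = 0.141, 0.0613 and 0.375). Pfkfb3 itself rose, from 22.9 ± 1.42 in sgNTC to 34.4 ± 2.15 CPM in sgp53 (edgeR adjusted p = 0.0193, log2 fold change 0.59 with SE 0.09), and the log2 ratio of Tigar to Pfkfb3 changed by -1.04, -0.84 and -0.96 in lines 1, 2 and 3.

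Ephx1 fell by 1.58 relative to Ephx2, the soluble epoxide hydrolase. Ephx2 was low and uneven, at 1.95, 4.46 and 2.47 CPM in sgNTC and 1.54, 0.973 and 1.90 CPM in sgp53 (edgeR adjusted p = 0.159, log2 fold change -1.01 with SE 0.40). Dcxr fell by 5.84 relative to Cbr2, a related carbonyl reductase, but Cbr2 had only 1, 0 and 4 counts in the sgNTC libraries. The size of that ratio therefore depends on the added count: it was -6.93 with a prior count of 0.5 and -4.99 with 5. Cbr2 had 15, 44 and 32 counts in sgp53 and was called higher (edgeR adjusted p = 0.0418, and 0.0792 with the line as a block).

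The other 2 pairs overlapped. Acad11 changed by -0.23 relative to Acad10 (exact permutation p = 0.4, adjusted 0.5), whose own log2 fold change was -0.37 (SE 0.23, edgeR adjusted p = 0.328). Fdxr changed by -0.16 relative to Fdx1, the ferredoxin it reduces (exact permutation p = 0.5, adjusted 0.5). For Sco2 no ratio could be formed; its relative Sco1 was at 21.9 ± 1.13 CPM in sgNTC and 24.6 ± 1.27 CPM in sgp53 (edgeR adjusted p = 0.235).

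**Figure D3:**
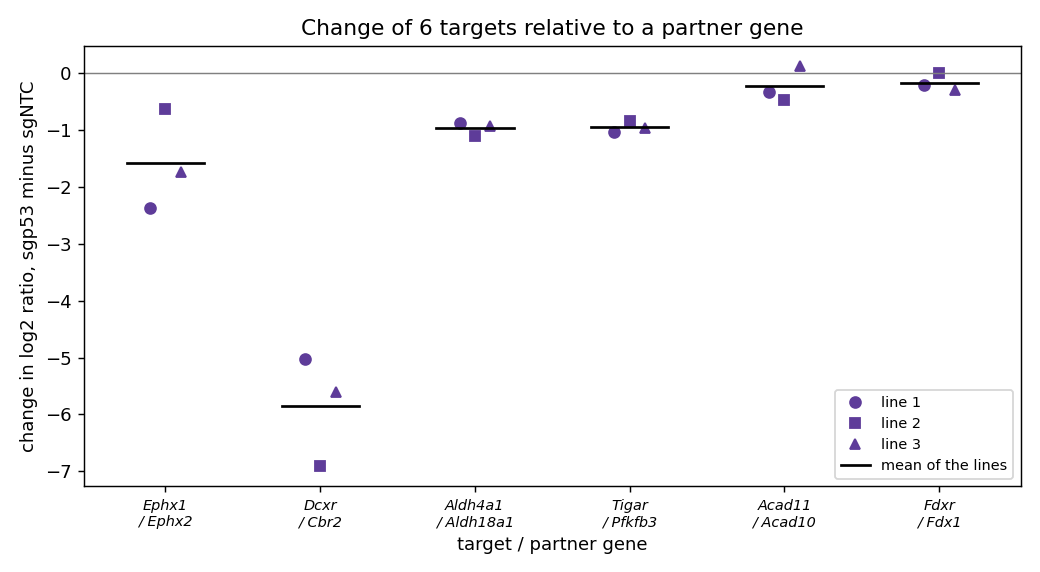
Change from sgNTC to sgp53 in the log2 ratio of 6 targets to a partner gene, for lines 1, 2 and 3 (symbols) and their mean (bar). Ephx1, Dcxr, Aldh4a1 and Tigar lie below 0 in all 3 lines, and Acad11 and Fdxr have a line at or above 0.

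Genes of the pathways around these enzymes were called at shares near those of all genes. Of 131 tested genes in 9 lists, 6 were lower (4.58%) and 5 higher (3.82%), against 3.69% and 2.76% of all genes. Of these lower and higher genes, 4 and 0 were in a list of further metabolic genes linked to p53, described below. Over all 131 genes the median log2 fold change was -0.03. The count of lower genes was 3 without sgp53 line 2, 1 without sgNTC line 3, sgp53 line 1, sgp53 line 3, line 1 or line 2, and 0 without line 3. That of higher genes was 3 without sgNTC line 1 or sgp53 line 2, 1 without sgNTC line 2, sgp53 line 3 or line 2, 0 without sgNTC line 3, sgp53 line 1, line 1 or line 3, and 2 with the line as a block. None was called by edgeR, in either direction, among 9 genes of the proline pathway (median 0.19), 11 of glutamine and glutamate (0.12) or 21 of the acyl-CoA dehydrogenases and fatty acid oxidation (-0.09). Log2 fold changes were above 0 in 8 of the proline, 7 of the glutamine and 5 of the oxidation genes. They were below 0 in 1, 4 and 16. Over all genes tested, 6327 were above 0 and 6717 below. At an unadjusted edgeR p under 0.05 these lists had 1 gene lower and 3 higher, 1 lower and 2 higher, and 2 lower and 1 higher. DESeq2 called 2 proline and 2 glutamine genes higher and 2 oxidation genes lower, and limma-voom called 0 in each list. In these lists Aldh18a1 was at 172 ± 6.75 and 205 ± 13.2 CPM in sgNTC and sgp53, and the transaminase Got2 at 345 ± 6.41 and 347 ± 17.1 CPM. The amino acid carriers Slc38a2 (328 ± 33.5 and 420 ± 48.3 CPM) and Slc7a5 (305 ± 14.3 and 331 ± 18.0 CPM) and the oxidation genes Etfa (128 ± 2.72 and 118 ± 7.92 CPM) and Hadha (118 ± 3.52 and 115 ± 9.09 CPM) did not pass the test either.

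Single genes changed in the other lists. Of 14 genes of the fructose bisphosphate switch and pentose phosphate pathway, Pfkfb3 rose and Rpe, ribulose phosphate epimerase, fell from 74.9 ± 8.29 to 52.8 ± 4.12 CPM, a call lost with the line as a block (edgeR adjusted p = 0.0930). Of 15 ferredoxin and iron-sulfur genes, the mitochondrial chaperone Hspa9 rose from 783 ± 21.5 to 1048 ± 63.8 CPM, likewise lost with the block (edgeR adjusted p = 0.0724). Of 14 cytochrome c oxidase assembly genes, Lrpprc, which stabilizes mitochondrial mRNAs, rose from 123 ± 5.50 to 160.0 ± 14.1 CPM, with the block at an edgeR adjusted p = 0.0671. Of 13 phosphotransfer kinases, the mitochondrial creatine kinase Ckmt1 fell from 3.46 ± 2.92 to 0.197 ± 0.0885 CPM. Of 15 epoxide, carbonyl and xylulose genes, Cbr2 and the P450 enzyme Cyp1b1 rose, the latter from 1.27 ± 0.939 to 15.9 ± 4.08 CPM.

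Of 19 tested genes in a list of further metabolic genes linked to p53, 4 fell by edgeR (21.1%, against 3.69% of all genes) and none rose. This list, too, was chosen with earlier results of these data known. The median log2 fold change was 0.01, and 1 gene was higher at an unadjusted edgeR p under 0.05. DESeq2 called 4 of the 19 lower, limma-voom 3, and both called 0 higher. Without line 3 edgeR called none of them (4 were lower and 0 higher at an unadjusted p under 0.05; DESeq2 and limma-voom were not run on these 2 lines), and without line 1, line 2, sgNTC line 3, sgp53 line 1 or sgp53 line 3 it called 1. Cpt1c, the brain-type carnitine palmitoyltransferase, fell from 116 ± 13.2 to 39.4 ± 4.43 CPM (edgeR adjusted p = 0.00279, log2 fold change -1.56 with SE 0.12). Sesn2, a stress protein that restrains mTORC1, fell from 122 ± 26.5 to 53.9 ± 6.20 CPM. Lpin1, a phosphatidate phosphatase, fell from 24.0 ± 6.11 to 8.19 ± 1.98 CPM. The fourth, named after its values were seen, was Rrm2b, the p53-inducible ribonucleotide reductase subunit (23.6 ± 2.61 CPM in sgNTC and 16.7 ± 0.813 CPM in sgp53; with the block its edgeR adjusted p was 0.0893).

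**Figure D4:**
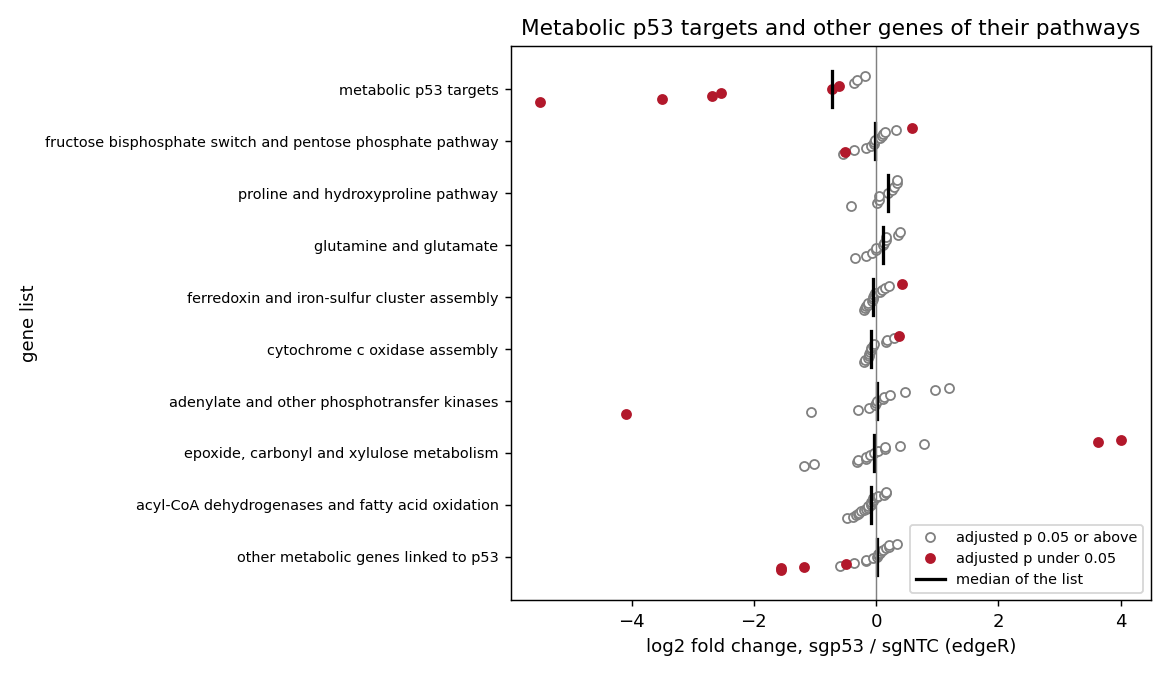
Log2 fold change (sgp53 over sgNTC, edgeR) of every tested gene in the set of metabolic p53 targets and in the 9 pathway lists; filled red points have an adjusted p under 0.05, and the bar is the median of the list. The median of the targets is -0.72, and the medians of the 9 lists lie between -0.09 and 0.19.

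Counts of called enzymes depended on how many lines were used. Of the 6 that fell, 3 were called without line 1, 2 without line 2 and 3 without line 3, where 47, 64 and 19 genes were called in all. With the line as a block 5 of 9 were called lower, against 1.42% of all genes. DESeq2 called 7 lower, against 8.66%, and limma-voom 6, against 3.17%. All 9 log2 fold changes stayed negative in all 15 alternatives, which reused the same 6 libraries. Each of the 9 was already lower in sgp53 within every line, so leaving out a line could hardly have changed a sign.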

How the data were processed

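Raw counts per gene symbol were deposited by the authors for each library. Per the submitters' processing notes, CASAVA 1.8, STAR, DESeq2 and build mm10 were used, with no roles given; how reads were assigned to genes or strands is not stated. The labels' protocols name a stranded TruSeq kit. Of 23420 genes, 5885 had only zeros. Counts were tested in R 4.3.3 with edgeR 4.0.16 (TMM, filterByExpr, quasi-likelihood F-test on group, 13044 genes, 4 residual degrees of freedom). The SE is the coefficient over the square root of F. CPM levels are given as mean ± SD of 3 libraries. Within-line differences used log2 CPM with a prior count of 2. DESeq2 1.42.0, limma-voom (limma 3.58.1), other scalings, no filter, a line block and left-out libraries were alternatives. The code was tested on simulated data.

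Both libraries of a line come from the same cell line, per the labels, which pairs them; deviations from the group means correlated at 0.089, 0.0018 and -0.027 for lines 1, 2 and 3. Same-group libraries differed beyond sampling noise (chi-square per degree of freedom 22.9 to 61.2). Partner genes were compared by exact permutation in Python 3.11.15. Positions, transcript lengths and exon overlaps are from GENCODE M21 (GRCm38). Members and lists were chosen with earlier results of these data known. Named genes are the 10 targets, their partners, label checks, markers, and from each pathway list up to 3 called genes of smallest adjusted p or, with none called, the 2 of highest mean CPM. Rrm2b and the Pfkfb kinases other than Pfkfb3 were named besides these. Ak6 had no row. Values of some genes that this rule takes are not reported here. The limit for a count of 0 is 3 counts and covers counting error only.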

Additional observations from a re-analysis of the deposited data

How the results depend on the processing

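The number of targets called lower, 6, ranged from 2 to 6 when a line or a library was left out, and no target was called higher in any alternative. Over all genes, edgeR called 841 genes, 311 with the line as a replicate block, and 19 to 700 with a line or library left out; DESeq2 called 2382. Pathway genes called lower numbered 6, or 11 with DESeq2 and 0 to 6 with a line or library left out. Those called higher numbered 5, or 10 with DESeq2, 2 with the replicate block and 0 to 3 with a line or library left out. The causes were not tested; leaving out a line leaves 2 libraries against 2. Of 135 refits of the 9 single targets, 119 kept their side of the threshold, 15 lost the call and 1 gained it, and none changed direction. Of the called targets, the line block ended the call of Acad11 alone. The 8 pair ratios kept their sign in all 40 recalculations with another prior count or a line left out, all from the same libraries. A sign-flip test with the line as replicate block leaves a ratio as it is (Aldh4a1 to Aldh18a1, -0.97) and cannot give a p below 0.25. Low counts limit Cbr2 and Ckmt1, and Sco2 had none.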
